A study of Mus musculus with 6 samples.

Results

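The genes described here were 9 components of JAK and STAT signalling, taken by name with earlier results of these data known: the transcription factors *Stat2*, *Stat3*, *Stat5a*, *Stat5b* and *Stat6*, the kinases *Jak1*, *Jak2* and *Tyk2*, and the inhibitor *Socs3*. They were 9 of 53746 genes in the count table, and all 9 passed the filter on low counts that left 16961 genes to test. RNA was sequenced from whole cerebella of 6 mice aged 2 months, 3 of each genotype. N153SLSL/LSL mice, called control mice here, carried on both copies of *Sting1* the N153S change of the innate immune adaptor STING behind a LoxP-Stop-LoxP cassette. N153SLSL/LSLPcp2-cre mice, called Pcp2-cre mice, carried the same alleles together with Cre driven by the *Pcp2* promoter, which is used to reach Purkinje cells. Mice 1 and 2 of each genotype were male and mouse 3 was female. The comparison asked how the RNA of these genes in the cerebellum differed once the mutant allele could be expressed in Purkinje cells.

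In this pathway a cytokine, interferon or hormone joins its receptor chains at the cell surface, the JAK kinases bound to those chains phosphorylate the receptor and each other, and STAT proteins that dock there are phosphorylated, pair and enter the nucleus to switch on target genes. STAT2 works downstream of type I interferons in a complex with IRF9. STAT3 works downstream of interleukin 6 and its relatives and is known in the brain for its part in astrocyte reactivity. STAT5A and STAT5B serve growth hormone, prolactin and several haematopoietic cytokines, and STAT6 serves interleukins 4 and 13. SOCS3 is itself switched on by STAT3 and blocks the kinases at the receptor. Signalling runs through phosphorylation, which RNA levels do not measure.

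No member of the group passed the test between genotypes. *Stat3* came nearest by p-value, 12% higher in Pcp2-cre mice (95% interval 3.20% to 21.6%), and *Stat6* had a larger and less certain difference of 28.2% (4.31% to 57.6%). *Stat2* was 6.47% higher (0.421% to 12.9%). The intervals of *Jak1* and *Stat5b* left room for changes of less than 10% in either direction, whereas those of *Socs3* and *Stat5a*, the members with the fewest reads, were wide.

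Of the 9 genes, 3 held in the 300 bases around their start (250 before and 50 after, on GRCm39 with the canonical start of Gencode M39) one of the letter patterns known for these factors. The patterns searched on both strands were TTCNNNGAA, a palindrome bound by STAT dimers, and the core of the interferon-stimulated response element. This core, which the complex of STAT2 and IRF9 binds, is GAAA and GAAA with 2 bases of any kind between. Palindromes with another number of bases between TTC and GAA were not searched. Matches are shown as places where these genes might be read by their own pathway. No binding was measured, and sequence outside these windows was not searched. Capitals mark the match, and 10 bases of context stand on each side.
*Stat2* (the response element core read on the opposite strand, 207 bases before the start, chr10:128106135-128106164, plus strand): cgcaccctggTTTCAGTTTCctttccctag
*Jak2* (TTCNNNGAA, 138 bases before the start, chr19:29228529-29228557, plus strand): aagcggtcccTTCGCAGAAgtggtggtta
*Socs3* (TTCNNNGAA, 223 bases before the canonical start but inside the annotated gene, since other transcripts start farther upstream, chr11:117860328-117860356, minus strand): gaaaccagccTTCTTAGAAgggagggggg
Such matches were common: TTCNNNGAA was present in 1918 of 21757 windows of the same length at protein-coding genes (8.82%) against 2 of the 9 members, and the response element core in 835 (3.84%) against 1 of the 9. No member held both patterns, and a match describes letters only.

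Reads assigned to genes numbered 6733178 to 10178218 per mouse, and mice of one genotype differed from each other by more than counting error (chi-square per gene 1.37 to 3.20). At this depth 3 reads, the smallest count treated as distinguishable from none, corresponded to 0.297 to 0.447 CPM (read counts scaled to library size), which covers counting error only. *Sting1*, the altered gene, read 23.2, 27.2 and 26.2 CPM in control mice and 44.4, 34.2 and 35.5 CPM in Pcp2-cre mice (log2 fold change 0.57, SE 0.0970, edgeR adjusted p = 3.59e-04). Gene counts do not show whether a transcript carried the mutant change or which cell type it came from. In public single-cell data the authors found *Sting1* mRNA in microglia and little or none in neurons, Purkinje cells included. The part of microglial RNA in the *Sting1* difference was not tested. Summed levels of marker genes differed between genotypes. Purkinje cell markers fell in 8 of 8 genes, from 6085 to 6657 CPM in control mice to 3252 to 3585 CPM in Pcp2-cre mice, and microglial markers rose in 10 of 12, from 138 to 142 CPM to 374 to 420 CPM. Astrocyte and Bergmann glia markers summed to 2239 to 2304 against 2609 to 2708 CPM (4 of 8 higher, 2 lower), oligodendrocyte markers to 3548 to 3763 against 4154 to 4366 CPM (4 of 6 higher), and granule cell markers overlapped (1 of 6 higher). Choroid plexus markers were at 1597 and 2275 CPM in control mice 1 and 2, and at 163 to 261 CPM in the other 4 mice, and 5 of 6 tested markers of this list were lower. Endothelial markers summed to 244 to 251 against 258 to 270.3 CPM with 0 of 7 past the test, and 1 of 5 mural cell markers rose with overlapping sums. Leukocyte markers stayed at or below 4.21 CPM in every mouse, none of the 7 could be tested and *Ly6g* was at 0, and red blood cell markers overlapped with 0 of 4 tested genes past the test. In whole tissue, fewer cells of a type and less RNA per cell cannot be told apart.

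Per length of transcript, *Stat2* was the most abundant member and *Socs3* the least. *Stat2* averaged 33.2 FPKM (fragments scaled to transcript length and library size) over the 6 mice and ranged from 31.3 to 35.9. *Jak1*, the kinase shared by interferon, interleukin 6 and interleukin 2 family receptors, followed at 27.5 FPKM (26.2 to 28.7). The middle of the order was held by *Stat5b* at 13.4 FPKM (13.0 to 13.8), *Stat3* at 11.8 FPKM (10.6 to 13.3), *Jak2* at 8.27 FPKM (7.87 to 8.60) and *Tyk2* at 6.34 FPKM (5.84 to 7.05). *Stat6* stood at 2.84 FPKM (2.17 to 3.31), *Stat5a* at 1.13 FPKM (0.991 to 1.36) and *Socs3* at 0.504 FPKM (0.319 to 0.721). *Stat5b* and *Stat3* were the sole neighbours in this order whose ranges over the mice overlapped.

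**Figure D1:**
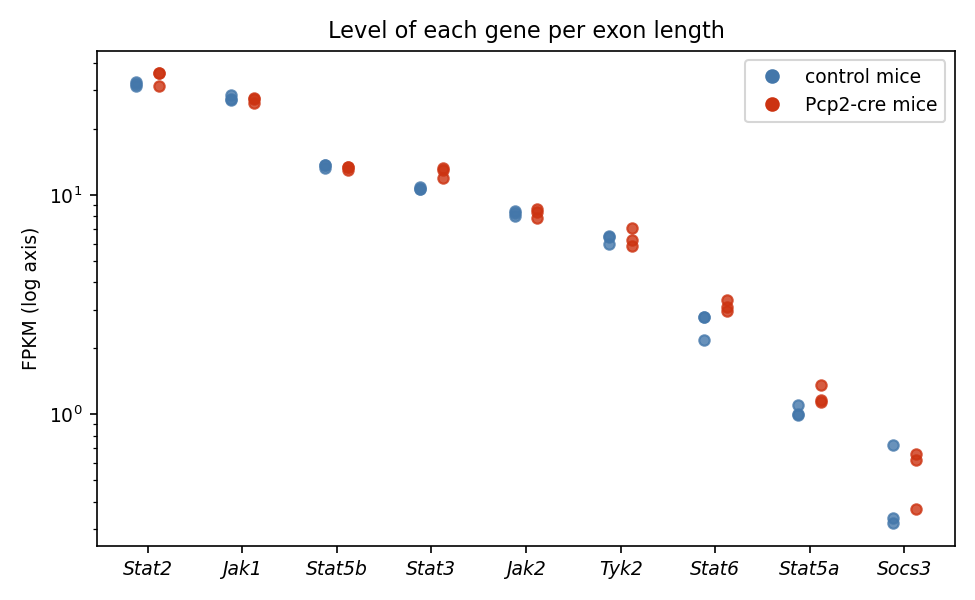
Level of each member gene in each mouse in FPKM, a unit that corrects for transcript length, on a log axis, with genes ordered by their mean over the 6 mice. Each point is 1 mouse, and *Stat2* lies highest at a mean of 33.2 FPKM and *Socs3* lowest at 0.504 FPKM.

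Among the 5 STAT genes, *Stat2* made up 53.5% ± 0.198 (SD, n = 3) of the summed FPKM in control mice and 53.0% ± 1.15 in Pcp2-cre mice. The share of *Stat3* was 17.9% ± 0.342 in control mice and 19.7% ± 0.232 in Pcp2-cre mice, without overlap. The share of *Stat5b* went from 22.6% ± 0.213 to 20.6% ± 0.792, while its own FPKM overlapped at 13.6 ± 0.224 against 13.3 ± 0.265. A share falls when others in the sum rise, so the lower share need not mean less *Stat5b* RNA. The ratio of *Stat3* to *Stat5b* in FPKM was 0.803, 0.771 and 0.798 in control mice and 0.965, 0.992 and 0.924 in Pcp2-cre mice. Computed from CPM, the same ratio was 0.703, 0.677 and 0.685 against 0.834, 0.830 and 0.707, so the groups were again apart but Pcp2-cre mouse 3 lay close to control mouse 1. These shares and ratios are descriptions and were not tested. Among the 3 kinases the composition was much alike, with *Jak1* at 65.6% against 65.0%, *Jak2* at 19.5% against 19.8% and *Tyk2* at 14.9% against 15.2% of their summed FPKM.

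In the edgeR quasi-likelihood test, 0 of the 9 members had a Benjamini-Hochberg adjusted p of 0.05 or less, against 7.74% of all genes tested (2.99% higher and 4.75% lower). At an unadjusted p under 0.05 there were 3 of 9, *Stat2*, *Stat3* and *Stat6*, against 18.0% of all genes, and DESeq2 gave 0 members at either threshold. All-gene calls were 507 higher and 805 lower in this test, and 236 higher and 255 lower with limma on log2(FPKM + 1). The median log2 fold change of the members was 0.09 and that of all genes 0.00, with 6 of 9 members above 0 against 51.3% of all genes. In 3 of 9 members, *Stat2*, *Stat3* and *Jak2*, every Pcp2-cre mouse lay above every control mouse in CPM, as was so for 10.8% of all genes; in none did every Pcp2-cre mouse lie below, against 11.4%.

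**Figure D2:**
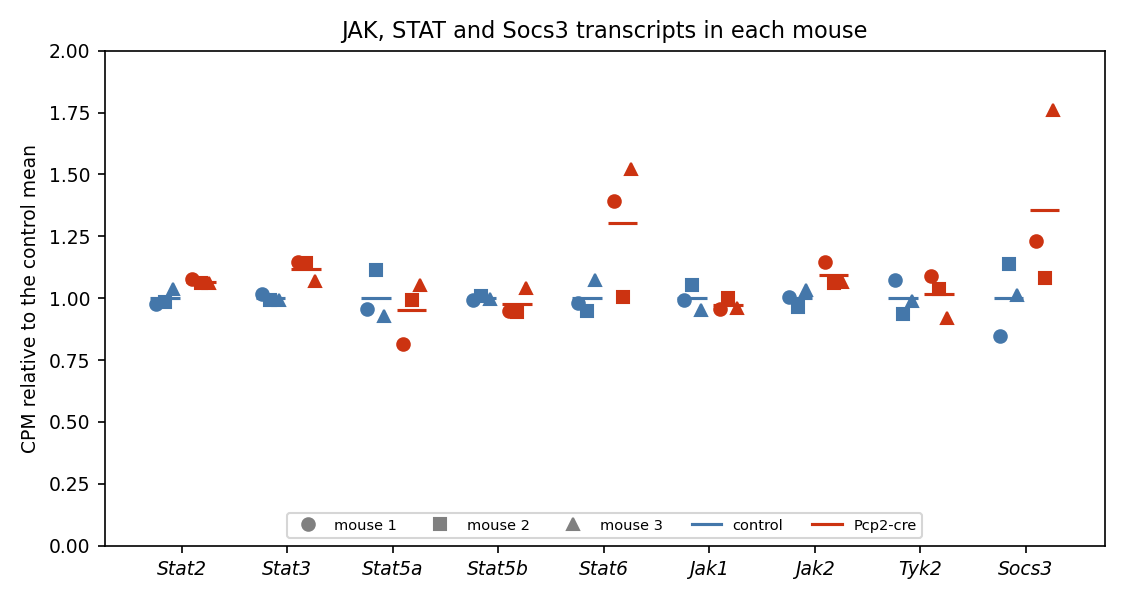
CPM of each of the 9 genes by mouse, divided by the control mean of that gene. All genes share 1 panel, with control and Pcp2-cre mice side by side and a line at the mean of each genotype. Before this scaling, *Stat3* in Pcp2-cre mice lay between 60.4 and 64.8 CPM, above the control mice at 56.0 to 57.4 CPM. *Stat5a*, *Stat5b*, *Stat6*, *Jak1*, *Tyk2* and *Socs3* overlapped between genotypes.

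*Stat3* (chromosome 11, 100775924 to 100830450, minus strand) measured 57.4, 56.0 and 56.1 CPM in control mice and 64.8, 64.4 and 60.4 CPM in Pcp2-cre mice. The groups did not overlap, and the control mice lay within 2 CPM of each other. The log2 fold change was 0.16 (SE 0.0569, 95% interval 0.05 to 0.28, edgeR adjusted p = 0.0928). The adjusted p ranged from 0.0709 to 0.473 over the 17 alternatives, none of which put it past the threshold, and leaving out each mouse kept the log2 fold change between 0.14 and 0.19. In FPKM it was 10.7 ± 0.144 against 12.8 ± 0.686 (SD, n = 3), again without overlap. *Stat3* shares 142 bases of exon with *Stat5a* and 554 with a long noncoding RNA, both on the opposite strand, and the sources used here do not say whether counting used strand.

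*Stat2* (chromosome 10, 128106352 to 128128735, plus strand) had no annotated exon overlap with another gene. It measured 122, 124 and 130.3 CPM in control mice and 135, 133 and 133 CPM in Pcp2-cre mice. Control mouse 3 lay nearest to the Pcp2-cre mice, and the groups were apart by about as much as the Pcp2-cre mice were among themselves. Its log2 fold change was 0.09 (SE 0.0404, 95% interval 0.01 to 0.17, edgeR adjusted p = 0.232). In FPKM the genotypes overlapped, at 32.1 ± 0.625 against 34.3 ± 2.67. With the choroid plexus marker score as a covariate its log2 fold change was 0.04.

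*Stat6* (chromosome 10, 127477821 to 127496862, plus strand) measured 10.5, 10.1 and 11.5 CPM in control mice and 14.9, 10.7 and 16.3 CPM in Pcp2-cre mice. Pcp2-cre mouse 2 lay within the control range and the other 2 lay above it. The difference was 0.36 on the log2 scale (SE 0.143, 95% interval 0.06 to 0.66, edgeR adjusted p = 0.162). Without Pcp2-cre mouse 2 it was 0.53 and passed (edgeR adjusted p = 0.0272), and without the others it was as low as 0.24; over the 17 alternatives the adjusted p ranged from 0.0272 to 0.503. In FPKM the groups did not overlap, at 2.58 ± 0.351 against 3.11 ± 0.178, so that the mouse that lowered the CPM difference did not stand apart there. *Stat6* shares 77 bases of exon with *Nab2* on the opposite strand.

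*Stat5a* (chromosome 11, 100750177 to 100776065, plus strand) and *Stat5b* (chromosome 11, 100671556 to 100741589, minus strand) are neighbouring paralogs. Their coding sequences are identical at 90.7% of 2343 aligned bases, and 15.6% of the 50-base stretches of *Stat5a* transcripts, but 4.59% of the 150-base stretches, occur unchanged in *Stat5b*, so short reads can be shared and the counts of each are uncertain to that extent. *Stat5b* measured 81.6, 82.6 and 81.8 CPM in control mice and 77.7, 77.6 and 85.4 CPM in Pcp2-cre mice. Pcp2-cre mouse 3, the female, was the highest of the 6 and the 2 males were the lowest. The log2 fold change was -0.04 (SE 0.0501, 95% interval -0.14 to 0.07, edgeR adjusted p = 0.797).

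*Stat5a* gave 41, 40 and 50 reads in control mice and 33, 46 and 38 in Pcp2-cre mice. As CPM these were 5.11, 5.96 and 4.95 against 4.35, 5.31 and 5.62, and the groups overlapped throughout. The log2 fold change of -0.06 (SE 0.189, 95% interval -0.45 to 0.33, edgeR adjusted p = 0.923) left a fall to 26.9% lower and a rise to 26.1% higher both possible. The deposited FPKM ordered the mice otherwise, at 1.03 ± 0.0637 in control and 1.22 ± 0.123 in Pcp2-cre mice without overlap, and with limma on log2(FPKM + 1) the log2 fold change was 0.13. The direction for *Stat5a* therefore depended on the table. Besides its overlap with *Stat3*, *Stat5a* shares 470 bases of exon with a long noncoding RNA on the opposite strand. The ratio of *Stat5b* to *Stat5a* in FPKM was 13.2 ± 0.653 in control and 11.0 ± 1.01 in Pcp2-cre mice.

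*Jak1* (chromosome 4, 101008838 to 101122487, minus strand) had the most reads of the group. It measured 156, 166 and 149.6 CPM in control mice and 149.9, 157 and 151 CPM in Pcp2-cre mice. The values of the genotypes were interleaved. Its log2 fold change was -0.04 (SE 0.0446, 95% interval -0.13 to 0.06, edgeR adjusted p = 0.758), which in percent was 2.44% lower with an interval from 8.54% lower to 4.06% higher. It shares 1950 bases of exon with *Raver2* on the opposite strand.

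*Jak2* (chromosome 19, 29228677 to 29290505, plus strand), the kinase of growth hormone, prolactin and colony-stimulating factor receptors, measured 48.4, 46.5 and 49.8 CPM in control mice and 55.3, 51.2 and 51.5 CPM in Pcp2-cre mice. All Pcp2-cre mice were above all control mice, 2 of them by less than the spread of the control mice. On the log2 scale the difference was 0.12 (SE 0.0635, 95% interval -0.01 to 0.26, edgeR adjusted p = 0.326). In FPKM the means were 8.26 ± 0.215 and 8.27 ± 0.374. *Jak2* shares 225 bases of exon with a long noncoding RNA on the opposite strand.

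*Tyk2* (chromosome 9, 21015363 to 21042689, minus strand), the kinase of the type I interferon and interleukin 12 family receptors, measured 40.9, 35.7 and 37.6 CPM in control mice and 41.5, 39.5 and 35.1 CPM in Pcp2-cre mice. The highest and the lowest of the 6 values both belonged to Pcp2-cre mice. The log2 fold change was 0.02 (SE 0.0785, 95% interval -0.14 to 0.19, edgeR adjusted p = 0.923). Noncoding genes on the opposite strand share 556 and 48 bases of its exons.

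*Socs3* (chromosome 11, 117856905 to 117860898, minus strand) gave 8, 9 and 12 reads in control mice and 11, 11 and 14 in Pcp2-cre mice. As CPM these were 0.998, 1.34 and 1.19 against 1.45, 1.27 and 2.07, and the groups overlapped. The log2 fold change was 0.42 (SE 0.342, 95% interval -0.29 to 1.14, edgeR adjusted p = 0.606). The interval ran from 18.2% lower to 120.0% higher, so a change of moderate size was not detectable at this depth. *Socs3* shares 160 and 261 bases of exon with long noncoding RNAs on the opposite strand.

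**Figure D3:**
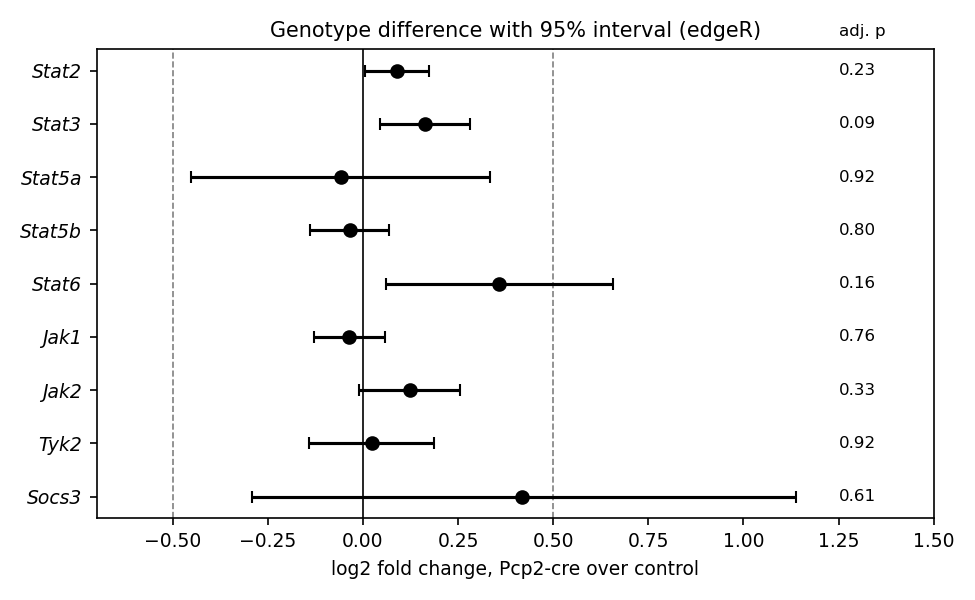
Log2 fold change of each member, Pcp2-cre over control, with its 95% interval from the edgeR fit. The intervals of *Stat2*, *Stat3* and *Stat6* lie above 0 before any adjustment for multiple testing, at 0.01 to 0.17, 0.05 to 0.28 and 0.06 to 0.66, and those of *Socs3* and *Stat5a* are the widest.

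The rest of the pathway was read from lists of 123 genes by role, of which 81 passed the filter on low counts. In all, 15 rose (18.5%, against 2.99% of all genes) and 1 fell (1.23%, against 4.75%), and the median log2 fold change was 0.12. The 42 genes that were not tested included 7 without a read in any mouse and 22 with at most 3 reads in every mouse. Some genes stand in more than one list.

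Of the other family members, *Jak3*, the kinase of the common gamma chain receptors, was at 6.37 ± 0.210 and 7.55 ± 0.568 CPM (log2 fold change 0.24, edgeR adjusted p = 0.474), and *Stat4* was too low to test.

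Among receptors of the interleukin 6 family, 1 of 6 rose (16.7%, against 2.99% of all genes). This was *Osmr*, the oncostatin M receptor, at 5.86, 5.06 and 5.35 CPM in control mice and 8.69, 7.96 and 9.17 CPM in Pcp2-cre mice (log2 fold change 0.66, SE 0.16, edgeR adjusted p = 0.0107). The groups were well apart, although the call was lost in 5 of 17 alternatives, among them DESeq2 and leaving out Pcp2-cre mouse 3 (edgeR adjusted p = 0.0576). The shared signalling chain *Il6st* was at 158 ± 4.03 against 161 ± 5.64 CPM, with an interval of its log2 fold change from -0.06 to 0.12. *Lifr*, the leukaemia inhibitory factor receptor, was at 46.3 ± 0.896 against 47.3 ± 3.78 CPM, and *Cntfr*, the ciliary neurotrophic factor receptor, at 94.2 ± 6.26 against 97.7 ± 3.10 CPM. Of the ligands of this family, 4 of 8 were tested and 0 passed.

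None of the 5 tested interferon receptor chains passed. *Ifnar1*, a chain of the type I interferon receptor, was at 56.1 ± 2.89 against 58.1 ± 2.66 CPM (log2 fold change 0.05, 95% interval -0.08 to 0.17), and its partner *Ifnar2* at 9.79 ± 1.22 against 9.87 ± 0.771 CPM (-0.29 to 0.29). *Ifngr1*, of the interferon gamma receptor, was at 15.2 ± 1.31 against 18.2 ± 1.75 CPM without overlap (log2 fold change 0.24, edgeR adjusted p = 0.226).

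Of 14 tested receptors for other ligands, 3 rose (21.4%, against 2.99% of all genes) and 1 fell (7.14%, against 4.75%). *Csf3r*, the granulocyte colony-stimulating factor receptor, rose from 2.25, 2.23 and 3.17 CPM to 10.1, 7.73 and 10.9 CPM (log2 fold change 1.86, SE 0.207, edgeR adjusted p = 1.66e-06) and passed in 17 of 17 alternatives. *Csf2ra*, a chain of the granulocyte-macrophage colony-stimulating factor receptor, rose from 38.7 ± 1.53 to 46.8 ± 1.51 CPM (log2 fold change 0.28, edgeR adjusted p = 0.0114), and *Csf2rb*, its signalling chain, from 0, 8 and 3 reads to 11, 20 and 9 reads (edgeR adjusted p = 0.0355). The calls of *Csf2ra* and *Csf2rb* were lost in 7 of 17 and 10 of 16 alternatives. For *Csf2ra* this included leaving out Pcp2-cre mouse 1 or 2 (edgeR adjusted p = 0.0830 and 0.0583), and for *Csf2rb* leaving out any mouse but control mouse 2 (edgeR adjusted p from 0.0787 to 0.30). Microglial markers moved with these receptors in the same mice, at 138 to 142 against 374 to 420 CPM in sum, and their part in the result was not tested. *Il4ra*, a receptor chain through which STAT6 is reached, was at 14.7 ± 0.364 against 13.6 ± 1.72 CPM (log2 fold change -0.10, edgeR adjusted p = 0.720). *Il13ra1*, another chain that leads to STAT6, named here after its values were seen, was at 4.68 ± 0.477 against 6.99 ± 0.827 CPM without overlap (log2 fold change 0.56, SE 0.179, edgeR adjusted p = 0.0587). *Ghr*, the growth hormone receptor, was at 7.79 ± 0.729 against 6.40 ± 1.37 CPM (log2 fold change -0.26, edgeR adjusted p = 0.494).

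The gene that fell was *Prlr*, the prolactin receptor, with 135, 157 and 7 reads in control mice and 5, 4 and 15 in Pcp2-cre mice (log2 fold change -3.59, SE 0.774, edgeR adjusted p = 0.00371). Only control mice 1 and 2 were high, the mice whose choroid plexus markers were at 1597 and 2275 CPM, and control mouse 3 lay among the Pcp2-cre mice. With the choroid plexus score as a covariate the log2 fold change of *Prlr* was 0.36 and the call was lost, as it was without Pcp2-cre mouse 2 (log2 fold change -3.19, edgeR adjusted p = 0.0885).

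Of 17 tested inhibitors, 2 rose (11.8%, against 2.99% of all genes). *Ptpn6*, a phosphatase abundant in blood and immune cells, was at 1.75, 0.893 and 1.29 CPM in control mice and 4.21, 5.19 and 7.55 CPM in Pcp2-cre mice (log2 fold change 2.06, SE 0.286, edgeR adjusted p = 3.18e-05). *Ptprc*, which encodes the leukocyte phosphatase CD45, went from 2.37, 2.23 and 1.78 CPM to 8.69, 5.66 and 8.14 CPM (log2 fold change 1.81, SE 0.231, edgeR adjusted p = 1.07e-05). Both are known from microglia as well, and the microglial sums above moved with them without their part being tested. The related phosphatase *Ptpn11* was at 277 ± 3.95 against 279 ± 4.74 CPM and the STAT inhibitor *Pias1* at 73.2 ± 3.79 against 72.3 ± 3.74 CPM. *Cish* and *Socs2*, both induced by STAT5, were at 4.03 ± 2.16 against 3.60 ± 0.691 CPM and at 22.5 ± 2.29 against 19.2 ± 1.18 CPM, with edgeR adjusted p of 0.945 and 0.250.

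Target genes were read by the STAT they are known for, and differences between these lists were not tested. For STAT3, 8 of 18 tested targets rose (44.4%, against 2.99% of all genes) and 0 fell, with a median log2 fold change of 0.27 against 0.00 for all genes. The number that rose was 5 with DESeq2, 5 with limma on log2(FPKM + 1) and 3 on log2(FPKM + 0.1), whereas 6 rose and 1 fell where each mouse had to reach 10 reads. *Gfap*, the intermediate filament of astrocytes, went from 113, 129.8 and 121 CPM to 429, 462 and 499 CPM (log2 fold change 1.94, SE 0.0561, edgeR adjusted p = 4.43e-15). *Serpina3n*, a protease inhibitor of reactive astrocytes, went from 2.49, 1.94 and 2.38 CPM to 17.1, 13.5 and 18.6 CPM (log2 fold change 2.82, edgeR adjusted p = 8.14e-10). Smaller rises were seen for the filament gene *Vim* (log2 fold change 0.41, edgeR adjusted p = 2.19e-06) and the immediate early gene *Fos* (log2 fold change 0.51, edgeR adjusted p = 2.22e-04). *Gfap* and *Serpina3n* passed in 17 of 17 alternatives. The call of *Fos* was lost in all 3 FPKM fits (limma adjusted p from 0.0603 to 0.165) and that of *Vim* in 2 of them (0.0849 and 0.106). *Gfap* is also in the list of astrocyte and Bergmann glia markers. Its own CPM is part of their sum, which was 2239 to 2304 CPM in control and 2609 to 2708 CPM in Pcp2-cre mice. In that list, 4 of 8 markers rose and 2 fell. The part of these markers in the STAT3 list was not tested, and several of these targets are also reached by other factors.

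For the complex of STAT2, 1 of 11 tested partner and target genes rose (9.09%, against 2.99% of all genes). It was *Bst2* (tetherin), at 2.63 ± 0.209 against 4.60 ± 0.971 CPM (log2 fold change 0.78, edgeR adjusted p = 0.0357). This call was lost in 10 of 17 alternatives, among them leaving out control mouse 1 or 2 or Pcp2-cre mouse 2 or 3 (edgeR adjusted p from 0.0993 to 0.190). The median log2 fold change of the 11 was 0.48, and 11 of 11 were above 0 (51.3% of all genes). Of the STAT3, STAT5 and STAT6 targets, 15 of 18, 1 of 7 and 2 of 4 were above 0. Without overlap between genotypes, 6 of the 11 were higher (54.5%, against 10.8% of all genes). Microglial markers summed to 138 to 142 CPM in control and 374 to 420 CPM in Pcp2-cre mice, and their part in this list was not tested. *Irf9*, which completes the complex, was at 31.3 ± 3.92 against 36.3 ± 1.30 CPM without overlap (log2 fold change 0.20, edgeR adjusted p = 0.207). Of 7 tested STAT5 targets 1 rose (14.3%, against 2.99% of all genes), the cyclin gene *Ccnd1*, which is in the STAT3 list too (42.6 ± 1.12 against 53.5 ± 2.00 CPM, log2 fold change 0.33, edgeR adjusted p = 0.00167), and the median was -0.07. The *Ccnd1* call was lost in all 3 FPKM fits (limma adjusted p from 0.116 to 0.199). Of 11 STAT6 targets 4 were tested and 0 passed.

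**Figure D4:**
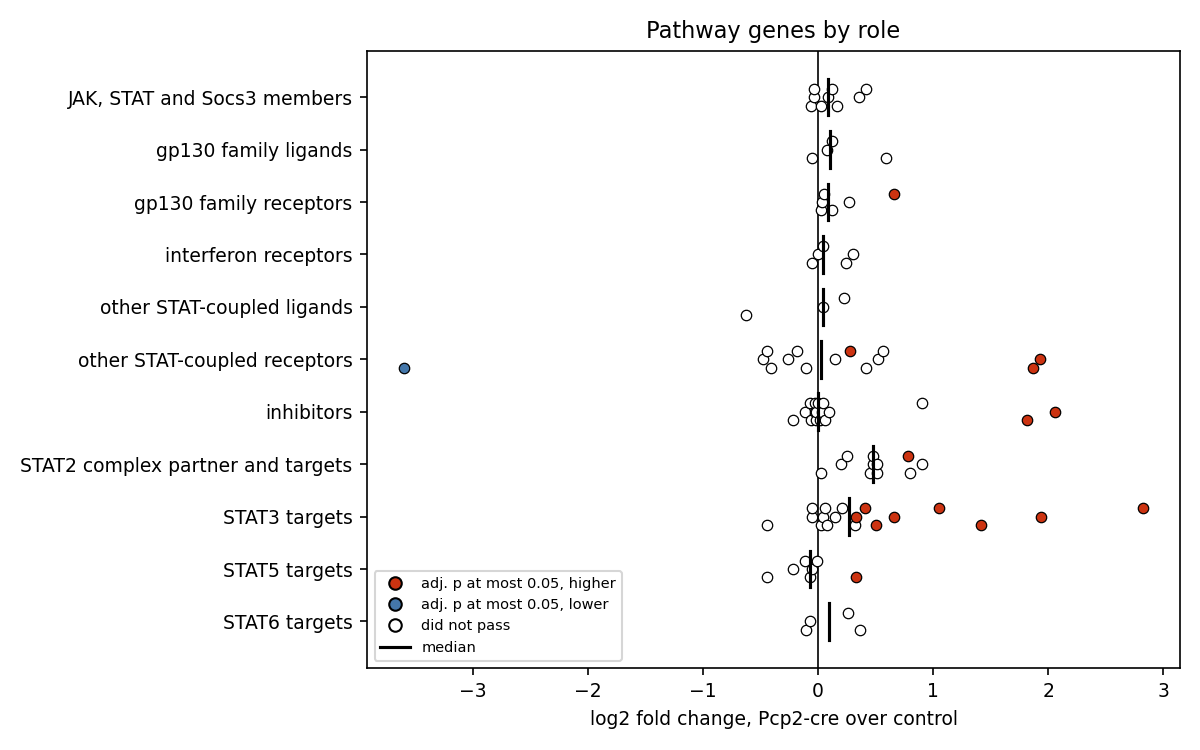
Log2 fold change, Pcp2-cre over control, of tested pathway genes by role, with genes past the adjusted p of 0.05 marked and the median of each list drawn. The STAT3 targets hold 8 genes past the threshold, all above 0. The members, the interferon receptors, the interleukin 6 family ligands, the other STAT-coupled ligands and the STAT6 targets hold 0. The list of other STATs and JAKs is not drawn.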

How the data were processed

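Whole cerebella of perfused mice were measured by poly(A) RNA sequencing in 3 control and 3 Pcp2-cre mice, grouped by the genotype in the labels. Per the submitters' notes and methods, STAR placed trimmed reads on GRCm39. The authors deposited gene counts (featureCounts) and FPKM (StringTie) on a Gencode annotation; versions, strand setting and treatment of multimapped reads are not given in the sources used here. Counts were tested with edgeR 4.0.16 (R 4.3.3; filterByExpr, TMM, quasi-likelihood, Benjamini-Hochberg over 16961 genes). Passed means an adjusted p of 0.05 or less. CPM used TMM-scaled totals of the tested genes, SD is over 3 mice, and standard errors and 95% intervals came from the fitted coefficients. FPKM (pseudocount 1 or 0.1, mean of at least 0.1) was tested with limma 3.58.1. DESeq2 1.42.0, other filters and size factors, sex, a choroid plexus score, male mice only and leaving out each mouse were alternatives. The labels do not say that mice came from separate litters. Scripts were tested on simulated data. Members and lists were chosen with earlier results of these data known. Named pathway genes were those past the threshold, at most 4 per list by smallest p, and a fixed set of receptors, inhibitors and *Irf9*. *Jak3*, *Stat4*, *Il13ra1*, *Prl* and *Gh* were named outside this rule. With 3 against 3, an exact permutation test of 1 gene cannot go below p = 0.1 and was not used. Promoters and coding sequences were read from GRCm39 with Gencode M39. A listed gene is counted in the pathway totals but is not reported here.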

Additional observations from a re-analysis of the deposited data

Results flagged for a closer look

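*Stat5b* differed between the sexes in direction. The female Pcp2-cre mouse was higher than the female control mouse (log2 difference 0.061), whereas both male Pcp2-cre mice were below both male control mice (log2 difference -0.08). There was 1 female per genotype. The interaction of sex and genotype in edgeR was 0.14 on the log2 scale (SE 0.109, adjusted p = 0.983), so the difference between the sexes did not pass, and 35 of 16961 genes did.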

How the results depend on the processing

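No member passed in 16 of 17 alternatives, and of 152 member values 143 kept their direction. The exception was *Stat6*: leaving out 1 mouse at a time gave 0 to 1 members past the threshold or also past a log2 fold change of 0.5. Directions turned for *Stat5a* with the choroid plexus score (0.069), with limma on log2(FPKM + 1) filtered or not (0.13), on log2(FPKM + 0.1) (0.22), and when a mouse was left out (from -0.13 to 0.038, above 0 without control mouse 2 or Pcp2-cre mouse 1), for *Jak1* with the choroid plexus score (0.026), and for *Tyk2* when a mouse was left out (from -0.031 to 0.081, below 0 without control mouse 2 or Pcp2-cre mouse 1); the cause was not tested. Pathway genes that rose numbered 15 in the main test, 8 with DESeq2, 8 with limma on log2(FPKM + 1), 6 on log2(FPKM + 0.1) and 6 without its filter, and 11 to 16 when 1 mouse was left out. The gene that fell, *Prlr*, was lost with DESeq2, the choroid plexus score and the 3 FPKM fits (0 genes). It was also lost without Pcp2-cre mouse 2, where 1 gene of the list of other ligands fell instead. Where each mouse had to reach 10 reads *Prlr* was not tested, and 1 target listed for both STAT3 and STAT5 fell. Without the count filter 2 genes fell. Over all genes, 507 higher and 805 lower became 281 and 548 with DESeq2, 333 and 513 with the choroid plexus score, 236 and 255, 166 and 152, and 174 and 183 in the FPKM fits, and 325 and 527 without Pcp2-cre mouse 2. Same-numbered mice correlated at 0.04, 0.06 and 0.17 in their deviations from the group means, and not every mouse correlated best with its own number, so the numbers were not taken to pair them; with the replicate block 0 members passed, 14 pathway genes rose and 1 fell, and all genes gave 509 higher and 825 lower. Low counts limit *Socs3* and *Stat5a*, and a single female per genotype limits any comparison of the sexes.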

Other observations

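Transcripts of pituitary hormones that act through STAT5 varied widely between mice of one genotype. *Prl* (prolactin) gave 1, 0 and 100 reads in control mice and 0, 5 and 0 in Pcp2-cre mice, and *Gh* (growth hormone) gave 38, 5 and 47 against 0, 54 and 0. For both, the genotypes overlapped.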
